A study of Mus musculus with 4 samples.

Results

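The thyroid hormone receptors and the retinoid X receptors are 5 genes in the mouse: Thra, Thrb, Rxra, Rxrb and Rxrg. Chromatin immunoprecipitation of a tagged thyroid hormone receptor from striatum was read at these genes, and every peak whose summit lay within the RefSeq span of a gene, or within 30 kb of either end of it, was taken as a peak of that gene. By this rule 10 of the 7484 peaks in the authors' list belonged to a receptor gene, and 4 of the 5 genes had at least 1. The series has 3 IP fractions and 1 input library, all of mouse striatum. The IP fractions were recovered on IgG-coated magnetic beads and the input had no antibody. The series title names GS-TRa1, a tagged thyroid hormone receptor alpha 1, in animals that carry Gad2Cre and ThraGS, and the labels name no other genotype for IP or input. Gad2Cre is a driver line for GABAergic neurons, which make up most striatal neurons, and how the driver controls the tagged allele, the age of the animals and whether animals were pooled are not given in the sources used here. Thra therefore appears here both as the gene of the tagged protein and as a possible target, and reads from the engineered and the normal allele cannot be told apart.

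Thyroid hormone receptors are nuclear receptors that sit on DNA with or without hormone, usually paired with a retinoid X receptor. Their best known element is a pair of AGGTCA half-sites in the same direction with a spacer of 4 bases, called DR4, and in brain they are known for timing the maturation of neurons. Retinoid X receptors are the shared partners of many other nuclear receptors, among them the retinoic acid, vitamin D and peroxisome proliferator-activated receptors. A peak at a receptor gene marks chromatin enriched in the IP at a gene of the receptor's own machinery. The list covers the whole series, with no value per fraction, so the spread between fractions is unknown and no test was made. An IP from animals without the tag was not analysed here, and recovery of chromatin by the beads alone was not tested. The striatum is a mixture of cells, so few cells with a strongly occupied site and many with a weakly occupied one cannot be told apart.

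Each peak carries the authors' scores: the pileup, which is the scaled height of stacked fragments at the summit, the fold of that pileup over the local background, and −log10 of the q-value. All peaks had a median fold of 6.91 (quartiles 5.55 and 9.73), a median pileup of 21.6 and a median width of 260 bp. Pileups lay on a grid with a step of 0.939, and dividing by it gave 10 to 305 fragments per summit, with a median of 23. Intervals of a fold below are 95% exact Poisson intervals on these fragments with the background held fixed. They cover counting error of the IP fragments only. Whether PCR copies of a fragment were removed is not stated, and any that were kept count more than once.

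The strongest receptor gene peak stood at the shared start of Rxrb and its neighbour Slc39a7, which encodes a zinc transporter. The RefSeq promoter table (GRCm38.p6) places the start of Slc39a7 on the minus strand at 34031690 and that of Rxrb on the plus strand at 34031812 of chromosome 17, 122 bp apart. The summit lay between them, 38 bp from the start of Slc39a7 and 84 bp from that of Rxrb. The stretch is shown because the summit falls in it. It is read on the plus strand of chr17:34031661-34031841, with the 121 bases between both starts in capitals and 30 bases on each side in lower case, and the summit is at base 68.
Rxrb and Slc39a7 starts: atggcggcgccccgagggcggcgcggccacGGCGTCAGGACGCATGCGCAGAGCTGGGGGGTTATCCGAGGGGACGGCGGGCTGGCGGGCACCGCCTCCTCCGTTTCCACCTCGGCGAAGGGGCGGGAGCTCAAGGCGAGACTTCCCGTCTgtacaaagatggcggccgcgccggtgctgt

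Bases between both starts were 71.1% G or C. The promoter table held 8 promoters of 300 bases, from 250 before to 50 after a start, for Thrb, Rxra, Rxrb and Rxrg. The summit at Rxrb was the only one in them, so 1 of 8 held a summit, against 1.63% of the 32851 promoters of all genes. Of the 537 promoters with a summit, 2.05% had a fold at or above that of Rxrb. This share includes the Rxrb promoter itself and that of Slc39a7, which holds the same summit. The Rxrb promoter with the summit was 68.7% G or C, with 37 CpG, and 11.1% of all promoters had a higher share. Promoters with a summit had a median of 61.7% G or C, against 52.7% for all promoters. The first Rxra promoter was richer than that of Rxrb, at 83.0% with 55 CpG, and held no summit.

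The receptor half-site AGGTCA, searched on both strands with exact letters, was not in either of the 2 Rxrb promoters. It was in 3 of the 8 receptor gene promoters, one each of Thrb, Rxra and Rxrg, none of which held a summit. All promoters had it in 16.3% of cases. Promoters with a summit had it in 17.3% and those without in 16.2%. The 4 half-sites are shown with 10 bases on each side, read on the plus strand of GRCm38.p6, the half-site in capitals. The Thrb site is chr14:17660766-17660791 and the Rxrg site chr1:167618167-167618192. The Rxra sites are chr2:27709195-27709220 and chr2:27709234-27709259, and the first of them reads TGACCT because its half-site is on the minus strand.
Thrb, 184 bases before the start: gagagttgacAGGTCAagggaatagg
Rxra, 87 bases before the start: gaaatgggtgTGACCTgagtaatggt
Rxra, 48 bases before the start: gtggcaggaaAGGTCAgtcactctct
Rxrg, 88 bases before the start: cggggttgaaAGGTCAgctgaaagct

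The Thrb site belongs to the first of 2 listed Thrb starts, and the Rxra and Rxrg sites to the second of 2. Pairs of half-sites were also searched on both strands, with AGGTCA repeated after a spacer of 0 to 6 bases, and with TGACCT and AGGTCA 6 bases apart as an everted pair. None of the 8 promoters held any of them. DR4 itself, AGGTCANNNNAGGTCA, was in 5 of the 32851 promoters, which is 0.0152%, and the most common pair, with a spacer of 1 base, was in 0.0396%. Every exact pair contains the half-site, so these counts overlap. A match is a description of letters in these windows, and the peaks away from the listed starts were not searched.

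At the level of genes, 4 of 5 receptor genes had a peak in the window, against 32.4% of all 21887 protein-coding genes. A fold of at least 10 was reached at 3 of the 5, against 10.5%, and one of at least 20 at Rxrb alone, against 1.97%. Thra had 4 peaks, Thrb 3, Rxrb 2, Rxrg 1 and Rxra 0. At least 4 peaks were found for 1.75% of protein-coding genes, at least 3 for 4.15% and at least 2 for 10.9%. The receptor windows together spanned 844 kb and held 1.19 peaks per 100 kb (95% exact Poisson interval 0.568 to 2.18). The windows of all protein-coding genes, joined where they overlap, held 0.396 per 100 kb. The interval of the receptor windows takes the peaks as independent. However, 2 Thra summits lay 880 bp apart and the 2 Rxrb summits 831 bp apart. Thra alone gave 4 of the 10 peaks in a window of 88.2 kb. Whether the receptor genes hold more peaks than other genes was not tested.

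**Figure D1:**
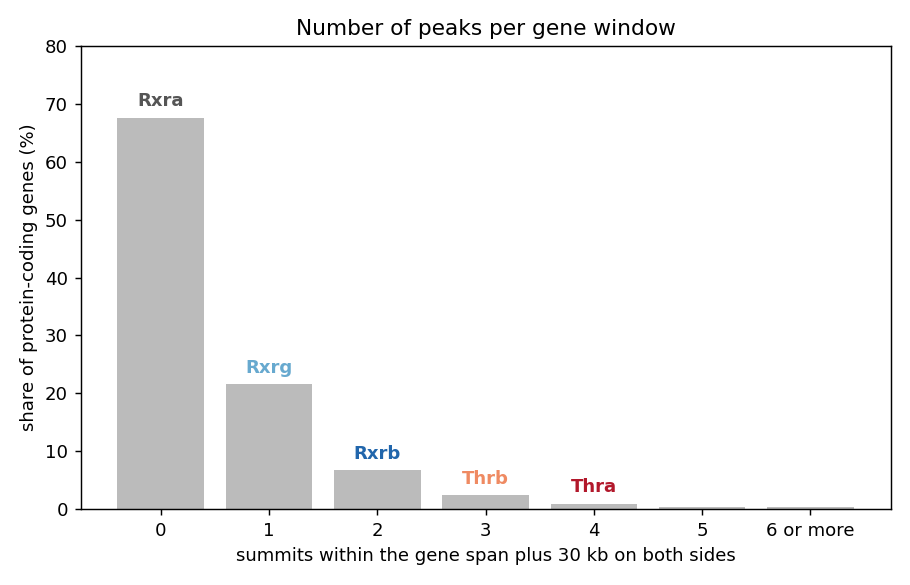
Number of summits in the span of a gene plus 30 kb on both sides, on the x axis, against the share of all protein-coding genes in percent, as bars. Receptor genes are written above the bar of their own count: Thra at 4, Thrb at 3, Rxrb at 2, Rxrg at 1 and Rxra at 0, where 32.4% of all genes have at least 1.

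Windows differ in length because the genes do, and the order by density was not the order by count. Thra had 4.53 peaks per 100 kb (1.24 to 11.6) and Rxrb 3.00 (0.364 to 10.8). Rxrg had 0.988 (0.025 to 5.5) and Thrb 0.680 (0.140 to 1.99). Thus Thrb had the highest count after Thra but the lowest density of the 4 genes with a peak. The intervals of these 4 genes all overlapped with each other, so their order by density is not resolved. Of all protein-coding genes, 0.914% had a higher density than Thra, 3.20% than Rxrb, 23.9% than Rxrg and 28.0% than Thrb. The interval of Thra lay above the density in all windows, and those of Rxrb, Rxrg and Thrb included it. Such an interval takes the peaks as independent, but 2 of the 4 Thra summits lay 880 bp apart inside Nr1d1. Counting each peak only for the nearest protein-coding gene left Thra 1 peak, and whether Thra holds more peaks than other genes was not tested.

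**Figure D2:**
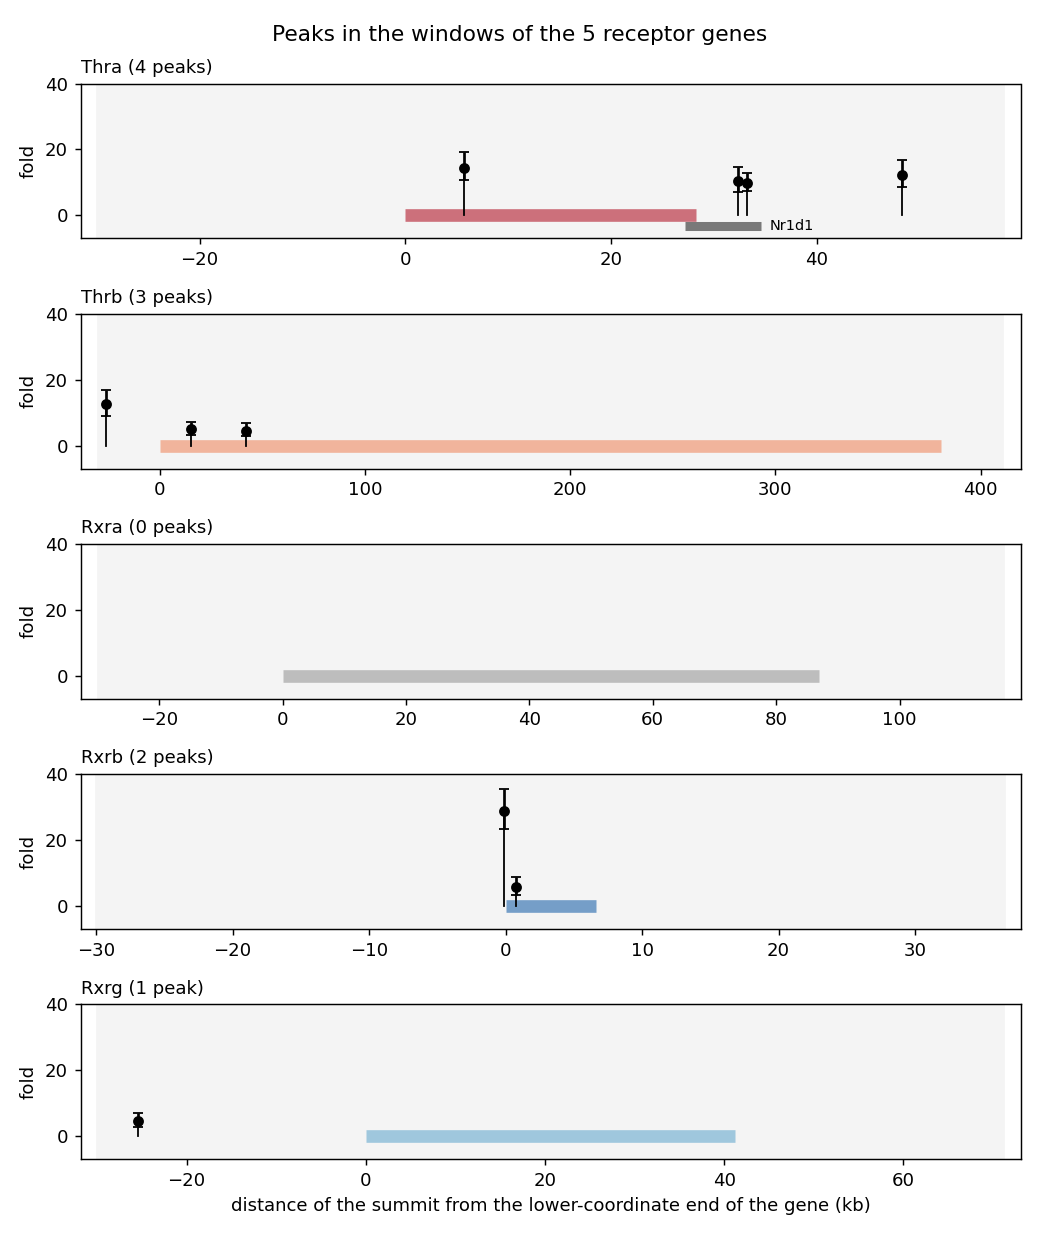
Peaks of the 5 receptor genes along their windows. The x axis is the distance of the summit from the lower-coordinate end of the gene in kb, the y axis the authors' fold, the bars the 95% exact Poisson interval, the coloured block the gene and the shaded area its window. The tallest peak stands at the start of Rxrb, the Thra peaks spread to both sides of the upper gene end, where Nr1d1 overlaps, and Rxra has none.

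Thra encodes TRα1 and, by splicing, a form that does not bind the hormone. The gene spans chr11:98740776-98769006, and its 4 peaks had folds of 14.4, 10.4, 9.78 and 12.2 in the order of their coordinates. These folds were close together, with intervals that all overlapped. The first, at chr11:98746193-98746756, was the only one inside the gene, 5721 bp from its lower end, with a fold of 14.4 (10.6 to 19.2) and a pileup of 42.26 from 45 fragments. At 564 bp it was also the widest receptor gene peak, and 2.73% of all peaks were wider. No other protein-coding span held this summit, and the nearest was Med24, a Mediator subunit gene, at 17078 bp.

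The next 2 peaks of Thra lay inside Nr1d1, which encodes the clock repressor REV-ERBα and whose span overlaps that of Thra by 1075 bp. They were 880 bp apart, at chr11:98772971-98773336 and chr11:98773830-98774124. Their summits were 4109 and 4989 bp beyond the upper end of Thra, and 2262 and 1382 bp downstream of the listed start of Nr1d1. The folds were 10.4 (7.19 to 14.6) and 9.78 (7.33 to 12.8). By pileup the third peak was the tallest of Thra, at 47.89 from 51 fragments, and by fold it was the lowest. Its local background was 4.0, against 1.89 to 2.00 at the other 3 peaks of Thra, so the order of these peaks depended on the score used.

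The fourth peak of Thra, at chr11:98788896-98789149, was 20004 bp beyond the gene and lay in no annotated span. Its fold was 12.2 (8.75 to 16.7). Msl1, which encodes a subunit of a histone acetyltransferase complex, was nearer, at 4498 bp. The windows of Nr1d1, Msl1 and Casc3, an exon junction complex gene, held this summit as well. All 4 peaks of Thra were also in the window of Nr1d1, and if each peak counted only for the protein-coding gene nearest to its summit, Thra kept 1. The next summit, at 95.2 kb from Thra, had a fold of 9.10.

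Thrb encodes the second hormone receptor and is a long gene of 381 kb, chr14:17659225-18040097. Only 1.76% of protein-coding genes were longer. It had 3 peaks with folds of 12.5, 4.90 and 4.48 in the order of their coordinates, so one stood above the list's median and 2 below it. The first, at chr14:17632942-17633270, lay outside the gene at 26126 bp from its lower end, with a fold of 12.5 (9.01 to 16.9) and a pileup of 37.56. It was 448 bp upstream of the listed start of the long non-coding RNA gene Gm32269, which runs away from Thrb, and 27861 bp upstream of the first listed Thrb start.

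Both peaks inside Thrb were weak by fold. At chr14:17674436-17674705 the fold was 4.90 (3.24 to 7.13) over a background of 4.0, and 87.5% of all peaks had a higher fold. Its pileup of 23.48 from 25 fragments was above the list's median of 21.6, and 42.3% of all peaks had a higher pileup. At chr14:17701039-17701219 the fold was 4.48 (2.75 to 6.93) with 18 fragments, and the width of 181 bp was the smallest of the receptor gene peaks. They were 15344 and 41945 bp from the lower end, within the first 11.0% of the gene. From the last of them the list had no summit for 537 kb, of which 339 kb lay inside Thrb. The fold interval of the first peak did not overlap with those of the inner pair. These intervals hold the background fixed, and it differed, at 2.09 for the first peak, 4.0 for the second and 3.0 for the third. On fragments alone, the intervals of the first peak (28.6 to 54.5) and the second (16.2 to 36.9) overlapped. A predicted protein-coding gene, LOC115488350, lies within the span of Thrb, and its window held the first 2 of the 3 peaks.

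Rxrb is the shortest of the 5 genes, at 6.59 kb, chr17:34031812-34038403. Its peak over both starts, chr17:34031500-34031887, had a pileup of 82.63 from 88 fragments (70.6 to 108) and a fold of 29.0 (23.3 to 35.6). It ranked 70 by fold and 124 by pileup among all peaks. Its interval lay above those of the other 9 receptor gene peaks, the highest of which ended at 19.2. The peak covered all 300 bases of the promoter around the first listed Rxrb start, and it overlapped the promoter of Slc39a7 on the other strand. The summit was nearer to Slc39a7, so counting each peak only for the nearest protein-coding gene gave it to Slc39a7 and left Rxrb with its second peak.

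That second peak, at chr17:34032464-34032669, was inside Rxrb, 831 bp from the first summit and 209 bp downstream of the second listed start. Its fold was 5.65 (3.43 to 8.85) with 17 fragments, and 71.8% of all peaks had a higher fold. The intervals of the pair did not overlap. Both summits lay in the windows of 5 protein-coding genes. Besides Rxrb these were Slc39a7, Col11a2, a collagen gene, Ring1, a Polycomb ubiquitin ligase gene, and H2-Ke6. Beyond the window the nearest summit was at 80.3 kb, with a fold of 6.52.

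Rxrg, the retinoid X receptor gene best known from striatum among brain regions, had 1 peak and none inside its span of chr1:167598362-167639623. The peak, at chr1:167572786-167573049, was 25463 bp from the lower end of the gene and equally far upstream of the first listed start. Its fold was 4.48 (2.75 to 6.93) with 18 fragments over a background of 3.00, the same scores as the last Thrb peak. Of all peaks, 92.0% had a higher fold. The next summit lay just beyond the window, at 37.6 kb, with a fold of 5.83. No other protein-coding gene lay within 30 kb of the summit at 25463 bp.

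Rxra, at chr2:27676445-27763319, had 0 summits in a window of 147 kb. A count of 0, with 3 counts as its upper limit, allows up to 2.04 peaks per 100 kb, and the 95% exact Poisson interval ends at 2.51. Both are above the 0.396 of all windows, so fewer peaks than at other genes could not be shown. The nearest summits were 439 kb below and 226 kb above the gene, leaving 752 kb without a peak. The nearer one had a fold of 5.65. Of all protein-coding genes, 28.0% were farther from a summit than Rxra.

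**Figure D3:**
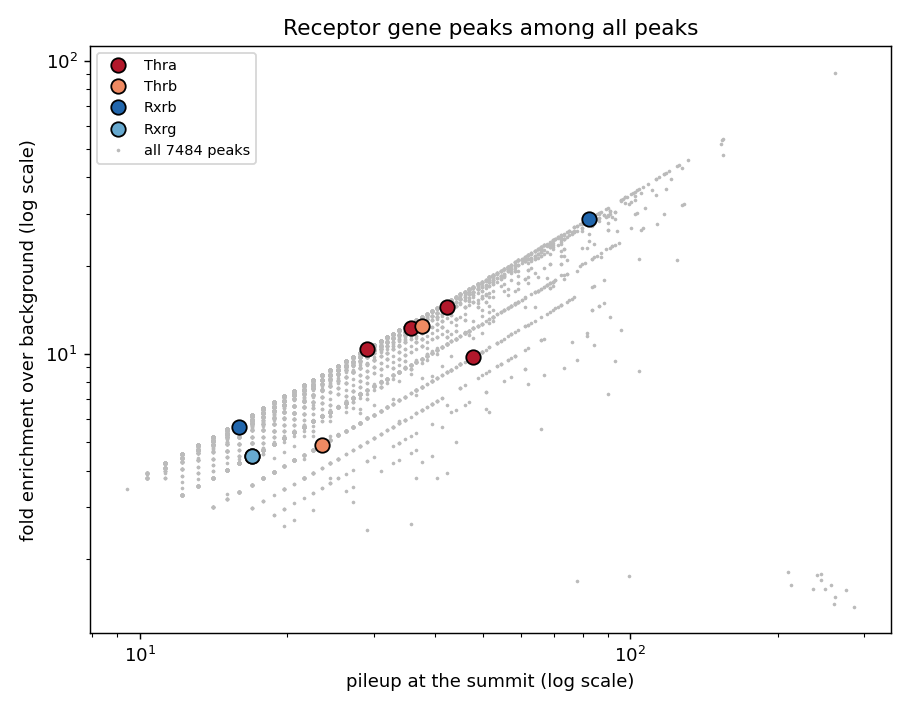
Pileup at the summit on the x axis and fold over the local background on the y axis, both on log scales, for all 7484 peaks in grey and the receptor gene peaks in colour. The Rxrb peak with a fold of 29.0 stands near the upper edge. The third Thra peak and the second Thrb peak sit lower than others of like pileup, with a background of 4.0, and the last Thrb peak is hidden by that of Rxrg at 4.48.

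By fold, the 10 peaks fell into a strong and a weak set. The 4 of Thra, the outer one of Thrb and the first of Rxrb had folds of 9.78 to 29.0, and the other 4 had folds of 4.48 to 5.65. The same 6 peaks were above the list's median fold, as 49.6% of all peaks were, and reached a −log10 q of at least 10, as 53.3% did. The local background was at its lowest value of the list, 1.89, under 2 of the 10 peaks, against 40% of all peaks. Summits lay inside a receptor gene for 4 of the 10 peaks and outside for 6. The share of all peaks inside a gene was not computed, so this count has no background. A summit within 500 bp of a listed start was found for 3 of the 10, against 12.8% of all peaks, one at Gm32269 and the pair at Rxrb. Starts of Thra itself were not used here, and its 4 summits lay 4109 bp or more from either end of the gene. In the windows of 2 or more protein-coding genes lay 8 of the 10, against 42.7% of all peaks in any such window. Only the last Thrb peak and the Rxrg peak had a receptor gene as the single protein-coding gene within 30 kb.

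The other genes of the pathway were read in the same way, over 4 lists. Of the 43 genes, 23 had a peak, which is 53.5% against 32.4% of all protein-coding genes. The strongest summit lay inside the gene's own span for 7 of the 23, only inside another protein-coding gene for 7, and in no protein-coding span for 9. A fold of at least 10 was reached at 7 of the 43 genes, against 10.5% of all protein-coding genes.

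Nuclear receptors that pair with a retinoid X receptor had a peak at 10 of 14 genes, 71.4% against 32.4% of all protein-coding genes. The strongest was at Ppard, a fatty acid sensor gene, with a fold of 35.8 (29.4 to 43.1), but that summit lay inside the neighbour Def6, 6498 bp from Ppard. Rara and Rarb, the retinoic acid receptor alpha and beta genes, had summits inside their spans with folds of 18.6 (14.1 to 24.0) and 14.6 (11.2 to 18.6). Pparg, the receptor gene of fat cell formation, had 10.7 (7.46 to 15) inside its span. The intervals of Rara, Rarb and Pparg overlapped with that of the strongest Thra peak. The lowest of the 10 was 5.34, at Nr4a1, and 4 genes had no peak: Nr1h2, Nr1h4, Nr1i2 and Nr4a2.

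Corepressors and coactivators had a peak at 7 of 13 genes, 53.8% against 32.4% of all protein-coding genes. Hr, which encodes the corepressor hairless, led with a fold of 34.2 (28.0 to 41.3). That summit lay 4589 bp outside Hr, in no protein-coding span. Ncoa3, a p160 coactivator gene, had 12.4 (9.62 to 15.8) with the summit inside LOC115489489, 126 bp from Ncoa3. Tbl1xr1, of the NCoR complex, had 8.0 with the summit 1088 bp outside the gene. The members without a peak included Ncor1, whose nearest summit was 30.6 kb away and so just outside the window, and the acetyltransferase genes Crebbp and Ep300. Hormone transport and metabolism had 2 of 7, which at 28.6% is near the share of all protein-coding genes. These were Dio3 with 11.6, its summit 9163 bp outside the gene, and Dio1 with 6.20, its summit inside Hspb11. Both are deiodinase genes. The transporter genes Slc16a10 and Slco1c1 had none.

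Retinoid supply had a peak at 4 of 9 genes, 44.4% against 32.4% of all protein-coding genes. All 4 had a strongest fold below the list's median of 6.91. Cyp26b1, which encodes a retinoic acid degrading enzyme, had 6.82 inside its own span. Cyp26a1, of the same enzyme family, had 6.20 with the summit inside Exoc6. Aldh1a3, a retinoic acid synthesis gene, had 5.87 with the summit 2255 bp outside the gene. Compared by the strongest peak of each gene, these folds were below those of Rxrb, Thra and Thrb and above that of Rxrg, but the interval of Cyp26b1 (4.62 to 9.75) overlapped with those of Thrb (9.01 to 16.9) and Rxrg (2.75 to 6.93).

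**Figure D4:**
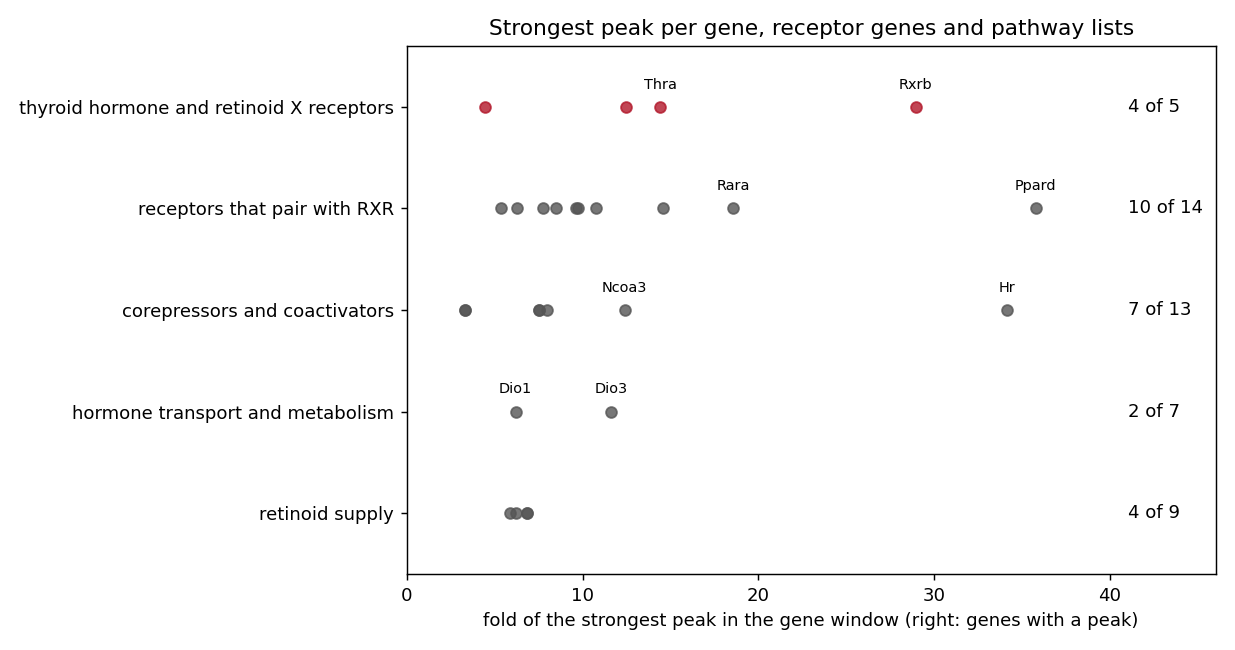
Fold of the strongest peak in each gene's window on the x axis, 1 point for each gene with a peak, for the receptor genes in red on top and the 4 pathway lists below in grey, with the number of genes with a peak at the right. Rxrb at 29.0 stands below Ppard at 35.8 and Hr at 34.2, and the retinoid supply genes all lie below a fold of 10.

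Markers of the cells in the tissue were counted by the same window, though a peak does not measure expression. Striatal and GABAergic neuron genes had a peak at 6 of 8, which is 75% against 32.4% of all protein-coding genes. Slc32a1 and Adora2a had none. Only Gad1 and Gad2 had the strongest summit inside their own span. For Drd1, Drd2, Ppp1r1b and Bcl11b it lay 588 to 13504 bp outside the gene. Oligodendrocyte genes had 3 of 6 (50%), microglia and endothelium 2 of 6 each (33.3%), and glutamatergic neurons and astrocytes 1 of 6 each (16.7%). The glutamatergic gene with a peak was Neurod2, which had 5 in its window. The strongest of them, with a fold of 10.1, was also the strongest peak of the striatal marker Ppp1r1b. The strongest summits of Mog, P2ry12 and Trem2 lay inside other genes. Together these 5 other cell types had 9 of 30, which is 30% against 32.4% of all protein-coding genes. The part of other cell types in the receptor gene peaks was not tested.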

How the data were processed

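Mouse striatum gave 3 IP fractions and 1 input, with libraries made for the Ion Proton system per the labels. The submitters' processing notes name builds GRCm38 and mm10 with the tools MACS2 2.1.1.20160309.0 and Bowtie2 2.3.4.2, roles and settings not stated. Whether fractions were pooled for the list is likewise not stated. The authors deposited 1 peak list with the pileup signal at each summit, the fold as a linear ratio over background, and −log10 p-values and q-values, per the file headers and the values. These scores are the authors' and were used only to describe and rank peaks. Width was end minus start plus 1 in 100% of peaks, and the pileup grid left a largest residual of 0.00504. Background was computed as (pileup + 1) / fold − 1.

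Genes came from RefSeq for GRCm38.p6, 21887 protein-coding on chromosomes 1 to 19, X and Y, and sequences from the RefSeq promoter table of that build. All list symbols matched. The window rule was tested on simulated peaks. Python 3.11.15, pandas 2.3.3 and scipy 1.17.1 were used. Receptor genes, lists and alternatives were chosen with earlier results of these data known. All receptor gene peaks are named, with the genes that hold or neighbour them, and per list up to 4 genes with the highest fold, of which some are not reported here; other genes were named after their values were seen. The list gives no read totals, so depth per library is unknown.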

Additional observations from a re-analysis of the deposited data

How the results depend on the processing

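Rxra had no peak under any of the 7 alternatives, and between 3 and 4 receptor genes had one. With the gene span alone, 4 peaks at receptor genes, a strongest fold of 14.4 at Thra, 11 pathway genes (25.6%) and 3001 protein-coding genes (13.7%) were left. With 100 kb on both sides there were 17 peaks and 11829 protein-coding genes (54.0%). A −log10 q of at least 10 left 6 peaks, 15 pathway genes (34.9%) and 4472 protein-coding genes (20.4%). A fold above the median left 6 peaks, 14 pathway genes (32.6%) and 4269 protein-coding genes (19.5%). Counting each peak only for the nearest protein-coding gene left 6 peaks, a strongest fold of 14.4 and 4093 protein-coding genes (18.7%). In each of these settings the peaks or windows counted differ by construction. With 10 kb on both sides, 3 receptor genes and 7 peaks were left, with 17 pathway genes (39.5%) and 4848 protein-coding genes (22.2%). Counting any base of a peak changed no receptor gene count. Leaving out each IP fraction in turn was not run because the list has no value per fraction. No paired analysis was possible because the result comes from no test and the list carries no value per library. The peaks that are weak by fold rest on 17 to 25 fragments, which limits their order.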

Other observations

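Thra and Thrb each lie on a chromosome beside a REV-ERB gene and a retinoic acid receptor gene, a pairing known from the shared ancestry of these regions, and the windows of all 6 genes held peaks, where 32.4% of all protein-coding genes had one. These genes were set side by side after their values were seen, and Thra and Nr1d1 share the same 4 peaks. Nr1d1 overlaps Thra, and the shared peaks had folds of 9.78 to 14.4. Rara lies 159 kb from Thra and had 2 peaks inside its span, with folds of 18.6 (95% exact Poisson interval 14.1 to 24.0) and 7.50 (4.83 to 11.2). Nr1d2 lies 164 kb from Thrb and had 1 peak inside its span, at chr14:18238108-18238597, with a fold of 39.6 (33.1 to 46.9). Rarb lies 577 kb from Thrb and had 4 peaks inside its span, with folds of 14.6, 5.55, 4.90 and 7.53. Among these 6 genes alone, the highest fold on chromosome 14 thus stood at the REV-ERB gene, and that on chromosome 11 at Rara. The intervals of the Rara peak with a fold of 18.6 and of the Thra peak with a fold of 14.4 overlapped.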
